A study of Bos taurus with 10 samples.

Results

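The 7 genes described here are C1QA, C1QB and C1QC, which encode the 3 chains of complement component C1q, and CD5L, VSIG4, CD163 and FCGR3A, which encode a secreted protein and receptors of macrophages that reside in tissues. They were taken by current gene symbol from 4366 named bovine genes on a cDNA microarray. The genes were selected on log2 differences between tissues that had been seen on these same arrays, such as those of subcutaneous over visceral adipose tissue. Their values are therefore given as a description, without a test. All 7 had a value on each of the 10 arrays.

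RNA of liver, mammary gland, subcutaneous adipose tissue, mesenteric adipose tissue and omental adipose tissue from cattle at peak lactation was set against a reference RNA mixed from tissues. The labels give no breed, age, treatment or number of animals, and which tissues went into the reference was not stated. Each tissue was 1 RNA sample on 2 arrays, 1 with the tissue in Cy3 and 1 with the tissue in Cy5, so a tissue counts as 1 sample and the spread between animals is unknown. Mesenteric and omental adipose tissue were averaged as visceral adipose tissue where they are set against another tissue.

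A level is the log2 ratio of tissue over reference, centred on the median of the array, so 0 means the same ratio as the middle gene and not the absence of the RNA. The direction of the ratio is likely rather than stated, and with the opposite direction every difference below would change sign. Its basis includes hepatocyte markers, of which 3 of 4 measured were higher in liver than in mammary gland, and markers of mammary epithelium, of which 5 of 5 were lower. A difference between tissues is the mean of the differences in the Cy3 and the Cy5 orientation, and ± is the distance of each orientation from that mean. A gene is counted as higher or lower when this mean reached 2-fold and both orientations had the same sign. On each array 15970 to 16245 of 16416 spots had a value, and duplicate spots correlated at 0.83 to 0.92. The labels contradict each other on the dye of the reference on 1 array, omental adipose tissue in Cy5. Gene names rest on a print layout reconstructed from the data, described with the processing.

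C1q is the recognition part of the first complement component. It binds antibody on its target and the surface of dying cells, and with the proteases encoded by C1R and C1S it starts the classical pathway. In human and mouse, C1q is made mainly by macrophages and related cells, whereas the proteases and most later complement proteins are made largely by hepatocytes. VSIG4 is a macrophage receptor for fragments of complement C3, known in human and mouse from Kupffer cells, the macrophages of liver sinusoids. CD163 takes up complexes of haemoglobin and haptoglobin. CD5L is a protein secreted by tissue macrophages that circulates with IgM in mouse, and FCGR3A is a low-affinity receptor for IgG on macrophages, monocytes and natural killer cells. In RefSeq's gene order for assembly ARS-UCD2.0, C1QC and C1QA are direct neighbours, 1 other coding gene lies between C1QB and C1QC, and FCGR3A lies beside FCGR2B, another receptor for IgG.

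The C1q genes shared liver as the highest tissue and mammary gland as the lowest. C1QA stood at 2.16 and 4.07 in liver, -0.34 and 0.77 in mammary gland, 1.27 and 2.67 in subcutaneous, 1.84 and 3.38 in mesenteric and 1.83 and 3.53 in omental adipose tissue, with the Cy3 array before the Cy5 array in each tissue. Liver and both visceral depots were high on both arrays, and mammary gland lay below every other tissue within each dye orientation. C1QB stood at 2.31 and 4.02 in liver, -0.54 and 0.75 in mammary gland, 0.57 and 2.33 in subcutaneous, 1.24 and 3.52 in mesenteric and 1.29 and 3.15 in omental adipose tissue. C1QC stood at 1.99 and 3.58 in liver, -0.14 and 0.75 in mammary gland, 0.24 and 1.33 in subcutaneous, 1.29 and 3.23 in mesenteric and 1.27 and 2.88 in omental adipose tissue. Subcutaneous adipose tissue therefore lay between mammary gland and the visceral depots for all 3 chains, but nearer to mammary gland for C1QC than for C1QA. Between neighbours in the order of C1QA, the step from subcutaneous adipose tissue to mammary gland was 1.75 ± 0.15 on the log2 scale, and no other step reached 2-fold. The same held for C1QB, at 1.35 ± 0.23. For C1QC the step that reached 2-fold was the one from omental to subcutaneous adipose tissue, at 1.29 ± 0.26, and the step from subcutaneous adipose tissue to mammary gland was 0.48 ± 0.10.

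CD5L had the same tissue at the top and at the bottom, over a wider range. Its values were 2.49 and 6.42 in liver, -2.47 and 1.34 in mammary gland, -0.26 and 3.28 in subcutaneous, 0.03 and 4.27 in mesenteric and 0.43 and 4.16 in omental adipose tissue. Within each dye orientation liver was the highest and mammary gland the lowest, while mesenteric and omental adipose tissue changed places between orientations. The mean levels of CD5L ran from -0.56 in mammary gland to 4.46 in liver, a range of 5.02 on the log2 scale.

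VSIG4 had another order, with subcutaneous adipose tissue far above the rest. Its values were 1.58 and 1.64 in liver, 0.42 and 0.33 in mammary gland, 5.37 and 5.53 in subcutaneous, 2.29 and 2.84 in mesenteric and 2.68 and 3.34 in omental adipose tissue. The step from subcutaneous to omental adipose tissue was 2.44 ± 0.24 on the log2 scale, and liver lay below both visceral depots on each array. The step from liver to mammary gland, at 1.24 ± 0.07, was the other one to reach 2-fold.

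FCGR3A and CD163 varied less. FCGR3A stood at 1.38 and 1.83 in liver, 0.12 and 0.11 in mammary gland, 1.07 and 1.45 in subcutaneous, 0.61 and 0.95 in mesenteric and 0.68 and 1.27 in omental adipose tissue. No step between neighbouring tissues reached 2-fold for this receptor, although liver was above mammary gland on both arrays. CD163 stayed between 0.04 and 0.90 on all arrays, with subcutaneous adipose tissue highest at 0.52 and 0.90 and liver at 0.06 and 0.16. The SD of the level over the 5 tissue means was 1.88 for VSIG4, 1.16 for C1QB, 1.14 for C1QA, 1.05 for C1QC, 0.56 for FCGR3A and 0.25 for CD163, where the median over 4307 genes was 0.30. For CD5L, 99.0% of these genes had a smaller SD, and for VSIG4 99.1%. CD163 was thus the member whose level differed least among tissues, with 40.1% of genes varying less. Its level rests on 1 clone, and without channel intensities a dim spot could not be set apart.

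**Figure D1:**
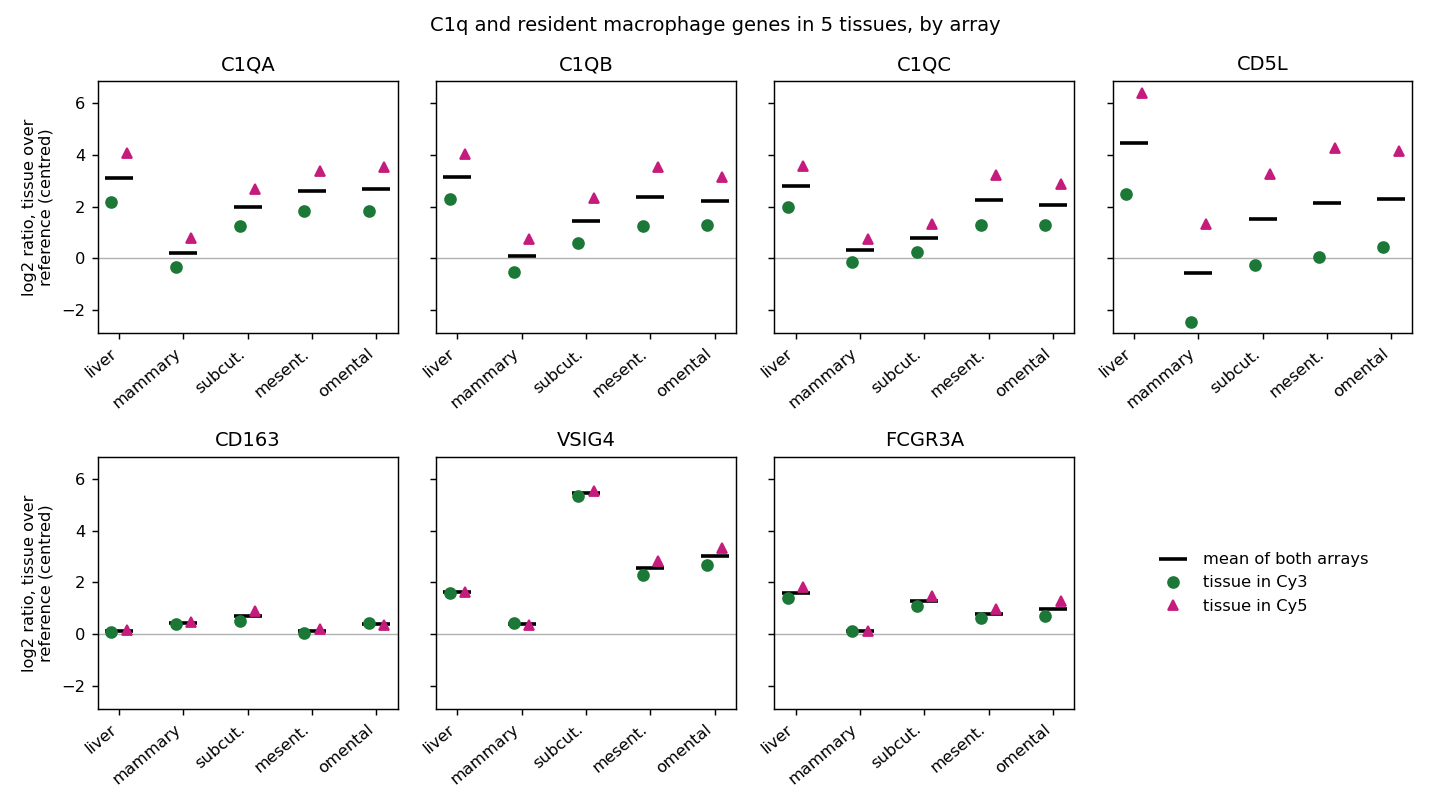
Each panel plots 1 gene, with the 5 tissues on the horizontal axis and the centred log2 ratio of tissue over reference on the vertical axis; green circles are arrays with the tissue in Cy3, magenta triangles arrays with the tissue in Cy5, and bars the mean of both. C1QA, C1QB, C1QC and CD5L are lowest in mammary gland and highest in liver with the triangles above the circles throughout, VSIG4 is highest in subcutaneous adipose tissue, and CD163 stays between 0.04 and 0.90.

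The C1q genes and CD5L had higher values on the Cy5 array than on the Cy3 array in 5 of 5 tissues. The distance of each orientation from their mean level, averaged over tissues, was 0.77 for C1QA, 0.89 for C1QB, 0.71 for C1QC and 1.92 for CD5L. Only 4 of 4307 genes had a larger one than CD5L, and the median size over all genes was 0.10. For CD163 it was 0.06, for VSIG4 0.13 and for FCGR3A 0.17. The cause of this dye offset was not tested. Differences between tissues were taken within an orientation, where such an offset cancels as far as it is the same in both tissues.

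C1QB, C1QC and VSIG4 were each represented by 2 cDNA clones at separate positions, and the other 4 genes by 1 clone. Over the 10 arrays the clones of C1QB correlated at r = 0.97, those of C1QC at 0.98 and those of VSIG4 at 0.99. These arrays share the reference and come in pairs of the same RNA, so r is a description of 5 tissues and 2 dye orientations. The largest gap between clones was 1.11 on the log2 scale for C1QB, 0.64 for C1QC and 0.77 for VSIG4. In subcutaneous over visceral adipose tissue, the first and second clone gave -0.93 ± 0.18 and -0.76 ± 0.13 for C1QB, -1.40 ± 0.29 and -1.36 ± 0.38 for C1QC, and 2.53 ± 0.21 and 2.79 ± 0.23 for VSIG4. Both clones of a gene thus had the same sign in this comparison. Searching the print layout again without the clones of these 7 genes gave the same layout, so the agreement of their clones had no part in that second choice. Duplicate spots of 1 clone on 1 array differed by a median of 0.10, as they did over all named elements.

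**Figure D2:**
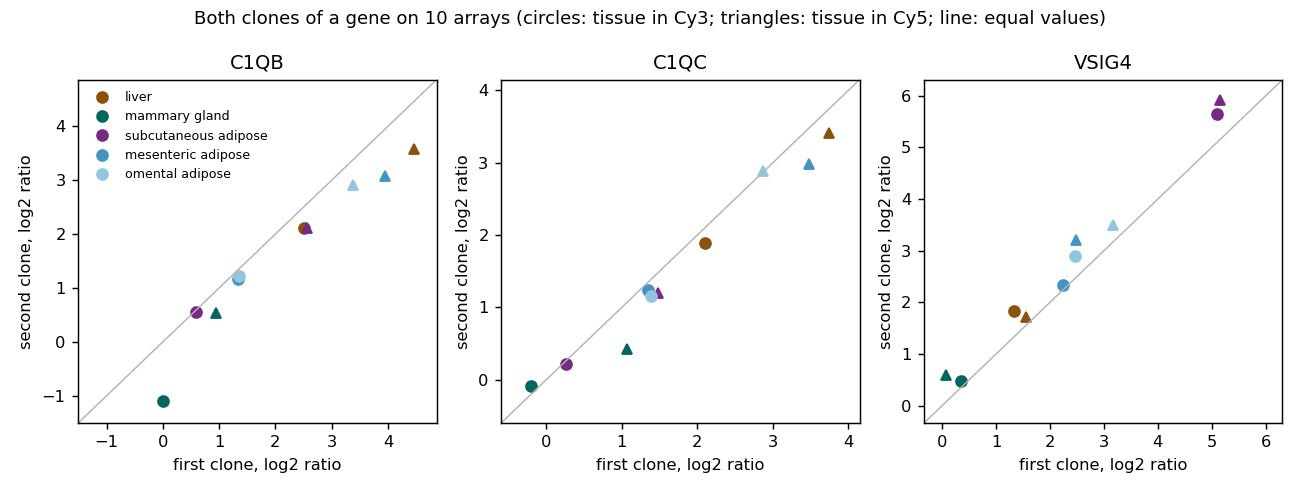
Each panel sets the second clone of C1QB, C1QC or VSIG4 (vertical axis, centred log2 ratio) against the first (horizontal axis, same unit) on the 10 arrays, with circles for the tissue in Cy3, triangles for the tissue in Cy5, colours for tissues and a line at equal values. The points follow the line with gaps of at most 1.11, the largest in mammary gland with the tissue in Cy3 for C1QB.

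The comparison of subcutaneous with visceral adipose tissue divided the 7 genes. VSIG4 was higher in subcutaneous adipose tissue by 2.66 ± 0.22 on the log2 scale (6.32-fold), and C1QC was lower there, at -1.38 ± 0.34. C1QB at -0.85 ± 0.15, CD5L at -0.71 ± 0.22 and C1QA at -0.68 ± 0.11 were negative in both orientations without reaching 2-fold. CD163 at 0.45 ± 0.18 and FCGR3A at 0.38 ± 0.04 were positive in both and did not reach it either. Of the 7 genes 1 was counted as higher and 1 as lower, where 6.23% of the 4332 genes with a value were higher and 3.72% lower, and the median was -0.68 for the members and 0.01 for all genes. In bulk tissue, fewer cells of a type and less RNA per cell cannot be told apart.

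The gap between C1q and VSIG4 can be read within arrays, where centring drops out. The subcutaneous over visceral difference of C1QA minus that of VSIG4 was -3.34 ± 0.11, for C1QB minus VSIG4 it was -3.51 ± 0.07, and for C1QC minus VSIG4 -4.04 ± 0.12. CD5L minus VSIG4 gave -3.37, with the orientations nearly equal at -3.37 and -3.38. The chains of C1q were also unequal among themselves, C1QC minus C1QA being -0.70 ± 0.23. Without centring, the median over all genes moved to 0.64 and the genes counted split into 858 higher and 40 lower, against 270 and 161 with centring. C1QC was then at -0.75 and no longer counted, CD163 at 1.08 and FCGR3A at 1.01 were counted as higher, and C1QA, C1QB and CD5L lay at -0.05, -0.22 and -0.09.

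General macrophage markers stood apart from the C1q genes in this comparison. All 15 measured of 24 listed were higher in subcutaneous adipose tissue, with a median of 2.89, led by LIPA (lysosomal acid lipase) at 4.82 ± 0.12, LGALS3 (galectin-3) at 4.09 ± 0.19, SPP1 (osteopontin) at 3.91 ± 0.14 and LAPTM5, a lysosomal membrane protein of leukocytes, at 3.75 ± 0.06. Among markers of recruited monocytes and granulocytes, 3 of 4 measured were higher, namely S100A12, a calcium-binding protein of granulocytes, at 5.33 ± 0.09, CYBB, the catalytic subunit of the phagocyte oxidase, at 4.32 ± 0.04, and the chemokine receptor gene CCR1 at 3.84 ± 0.10. NCF4, another oxidase component, was at -0.07 ± 0.05. These counts were the same without centring and after quantile normalisation.

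Other markers of resident macrophages were mixed, as the 7 genes were. Of 20 further genes listed, 9 had a value: 3 were higher in subcutaneous adipose tissue, 2 were lower and 4 did not reach 2-fold. MS4A7, a membrane protein of macrophages, was at 3.03 ± 0.24, SPIC, a transcription factor of red pulp macrophages in mouse, at 1.61 ± 0.35, and HMOX1, which breaks down haem, at 1.55 ± 0.06. On the other side lay CD209, a lectin of dendritic cells and macrophages, at -1.67 ± 0.23 and LYVE1, a hyaluronan receptor of lymphatic endothelium and some macrophages, at -1.26 ± 0.10. FOLR2, a folate receptor of macrophages, at 0.91 ± 0.06 and TIMD4, a receptor for phosphatidylserine on dying cells, at 0.88 ± 0.06 were positive below the limit.

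Markers of other cells also differed between these depots. Of the endothelial markers 4 of 5 measured were lower in subcutaneous adipose tissue, among them CDH5 at -1.52 ± 0.22, and of the adipocyte markers 2 of 3, CAV1 at -2.13 ± 0.06 and LIPE at -1.95 ± 0.15. Without centring none of the 5 endothelial markers was counted, while both adipocyte genes were. Of the T and natural killer cell markers 4 of 8 were higher, RAC2 at 2.16 ± 0.06 and CD3E at 1.95 ± 0.29 among them, and of the 6 B and plasma cell markers none had a value. The part of these cells in the values of C1q, VSIG4 and CD5L was not tested.

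**Figure D3:**
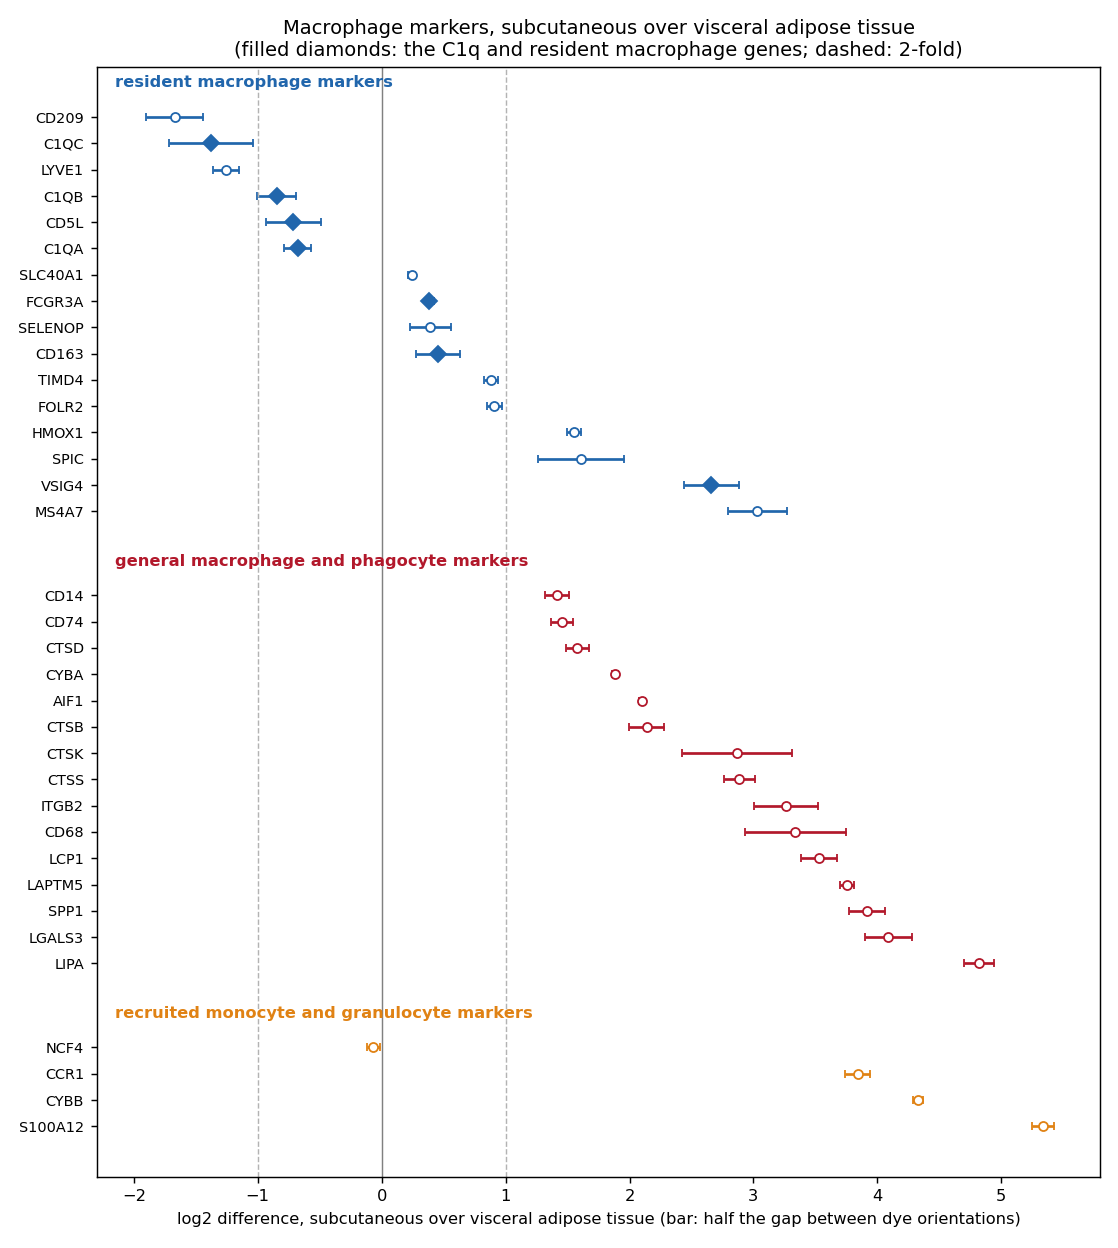
Log2 difference of subcutaneous over visceral adipose tissue (horizontal axis) for markers of resident macrophages (blue), general macrophage markers (red) and markers of recruited cells (orange), 1 gene a line; bars reach to each dye orientation, dashed lines mark 2-fold and filled diamonds are the 7 genes. The C1q genes and CD5L lie left of 0 at -1.38 to -0.68, VSIG4 lies at 2.66, and all 15 general markers lie right of the 2-fold line.

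Liver and mammary gland were the tissues between which most of the 7 genes differed. CD5L was higher in liver by 5.02 ± 0.06 on the log2 scale (32.5-fold) and ranked 11 of 4325 genes from the top. C1QB was higher by 3.07 ± 0.21 (8.37-fold), C1QA by 2.90 ± 0.40 (7.47-fold), C1QC by 2.48 ± 0.35 (5.58-fold), FCGR3A by 1.49 ± 0.23 (2.81-fold) and VSIG4 by 1.24 ± 0.07 (2.37-fold). CD163, at -0.33 ± 0.01, was the 1 member on the other side and did not reach 2-fold. The count of 6 of 7 stands beside 9.34% of all genes higher and 4.44% lower, with a median of 2.48 for the members and -0.01 for all genes. After quantile normalisation VSIG4 fell just short of 2-fold. Without centring the genes counted split into 303 higher and 301 lower, against 404 and 192, with the same 6 members still higher.

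Further resident macrophage markers had 5 of 9 genes higher in liver than in mammary gland and none lower. SELENOP, the plasma selenium carrier that hepatocytes also make, was at 3.15 ± 0.04, SLC40A1, the iron exporter ferroportin, at 2.80 ± 0.17, TIMD4 at 2.10 ± 0.18 and LYVE1 at 2.02 ± 0.14. MS4A7 had opposite signs in the orientations (1.25 ± 1.87). Of the general macrophage markers 3 of 15 were higher in liver and 2 lower, with a median of 0.60, and of the markers of recruited cells none of 4 was counted in either direction. Of the hepatocyte markers 3 of 4 moved with the members here, among them TF at 5.66 ± 0.64 and RBP4 at 7.64 ± 0.35 in liver over mammary gland. The hepatocyte marker APOA1, at 0.53 ± 0.52, did not reach 2-fold. The part of hepatocyte RNA in the values of CD5L and C1q was not tested.

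Set against visceral adipose tissue, liver had 1 member counted as higher and 1 as lower. In liver over visceral adipose tissue CD5L was higher by 2.23 ± 0.02 and VSIG4 was lower at -1.17 ± 0.27. C1QB at 0.87 ± 0.18, FCGR3A at 0.73 ± 0.01, C1QC at 0.62 ± 0.09 and C1QA at 0.47 ± 0.14 were positive in both orientations without reaching 2-fold, and CD163 was at -0.15 ± 0.03. Thus 1 of 7 was counted as higher and 1 as lower, beside 7.41% and 5.96% of all 4330 genes. Of the hepatocyte markers 3 of 4 were higher in liver in this comparison, with a median of 4.13, while 2 of 3 adipocyte and 2 of 5 endothelial markers were lower. Of the 9 further resident macrophage markers 1 was higher and none lower, and of the 15 general macrophage markers 1 was higher and 3 lower. The part of these cells in the values of CD5L and VSIG4 was not tested. C1QA had the opposite sign after quantile normalisation, at -0.25. VSIG4 missed 2-fold in the Cy3 arrays alone, at -0.90, and against mesenteric adipose tissue alone, at -0.95, while C1QB reached it in the Cy3 arrays alone, at 1.05.

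Against subcutaneous adipose tissue the C1q genes and VSIG4 lay on opposite sides. In liver CD5L was higher by 2.95 ± 0.20, C1QC by 2.00 ± 0.25, C1QB by 1.71 ± 0.03 and C1QA by 1.15 ± 0.25. VSIG4 was lower in liver at -3.83 ± 0.05 (14.2-fold). FCGR3A at 0.34 ± 0.03 and CD163 at -0.60 ± 0.14 were not counted, which leaves 4 of 7 higher and 1 lower, beside 7.98% and 9.64% of all 4347 genes. Other cell markers differed widely between these tissues. Of the general macrophage markers 14 of 15 were lower in liver, with a median of -3.04. Lower too were 3 of 4 markers of recruited cells (median -4.71) and 4 of 8 T and natural killer cell markers. Of the 9 further resident macrophage markers 3 were lower and 1 was higher, SELENOP at 2.11 ± 0.18, which hepatocytes also make. Of the hepatocyte markers 3 of 4 were higher in liver, with a median of 5.96, and 1, APOA1, was lower at -1.01 ± 0.15. The part of these cells in the values of VSIG4, CD5L and C1q was not tested. C1QA depended on the scaling and on the dye, since it was at 0.48 without centring, 0.69 after quantile normalisation and 0.90 in the Cy3 arrays alone. Without centring FCGR3A was at -0.33, CD163 at -1.28 was counted as lower, and the median of all genes was -0.74 with 164 genes higher and 1374 lower, against 347 and 419.

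Mammary gland was below both kinds of adipose tissue for most of the 7 genes. In mammary gland over visceral adipose tissue CD5L was at -2.79 ± 0.09, C1QA at -2.43 ± 0.25, VSIG4 at -2.41 ± 0.35, C1QB at -2.20 ± 0.39 and C1QC at -1.86 ± 0.44. These 5 of 7 genes were counted as lower and none as higher, beside 6.3% and 3.29% of all 4318 genes. FCGR3A at -0.76 ± 0.23 and CD163 at 0.18 ± 0.02 were not counted. Of the 9 further resident macrophage markers 4 were lower, among them LYVE1 at -2.31 ± 0.13 and SLC40A1 at -1.91 ± 0.18, and of the 15 general macrophage markers 5 were lower and SPP1, which milk-secreting epithelium also makes, was higher at 4.28 ± 0.25. Markers of mammary epithelium were higher in 5 of 5 genes (median 3.43), adipocyte markers lower in 3 of 3 (median -1.57) and endothelial markers lower in 3 of 5 (median -1.14). The part of these cells in the values of the 7 genes was not tested here or against subcutaneous adipose tissue. Without centring the genes counted split into 186 higher and 189 lower, against 142 and 272.

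In mammary gland over subcutaneous adipose tissue, VSIG4 was lower at -5.07 ± 0.13 (33.7-fold) and ranked 4 of 4331 genes from the bottom. CD5L at -2.07 ± 0.13, C1QA at -1.75 ± 0.15, C1QB at -1.35 ± 0.23 and FCGR3A at -1.15 ± 0.20 were lower too. C1QC at -0.48 ± 0.10 and CD163 at -0.27 ± 0.15 were not counted. The count of 5 of 7 lower stands beside 10.3% of genes lower and 3.6% higher. FCGR3A was at -0.95 in the Cy3 arrays alone. Without centring the median of all genes was -0.50, with 78 genes higher and 947 lower, against 156 and 448. Of the general macrophage markers 13 of 15 were lower in mammary gland in this comparison, with a median of -3.74, as were 3 of 4 markers of recruited cells (median -4.94), 3 of 8 T and natural killer cell markers and 8 of the 9 further resident macrophage markers. Markers of mammary epithelium were higher in 5 of 5 genes (median 4.34), 1 of 3 adipocyte markers was lower, and none of 5 endothelial markers was counted.

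Mesenteric and omental adipose tissue had no member that differed by 2-fold, beside 0.829% of 4340 genes higher and 0.576% lower in mesenteric adipose tissue. VSIG4 was at -0.45 ± 0.05, CD163 at -0.26 ± 0.13, FCGR3A at -0.19 ± 0.12, C1QA at -0.07 ± 0.09 and C1QB at 0.16 ± 0.21. C1QA, C1QB and CD5L had opposite signs in the orientations. Without centring C1QB was at -0.15 and C1QC at -0.13, so the sign of these differences was not fixed, and the genes counted split into 19 higher and 74 lower, against 36 and 25.

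**Figure D4:**
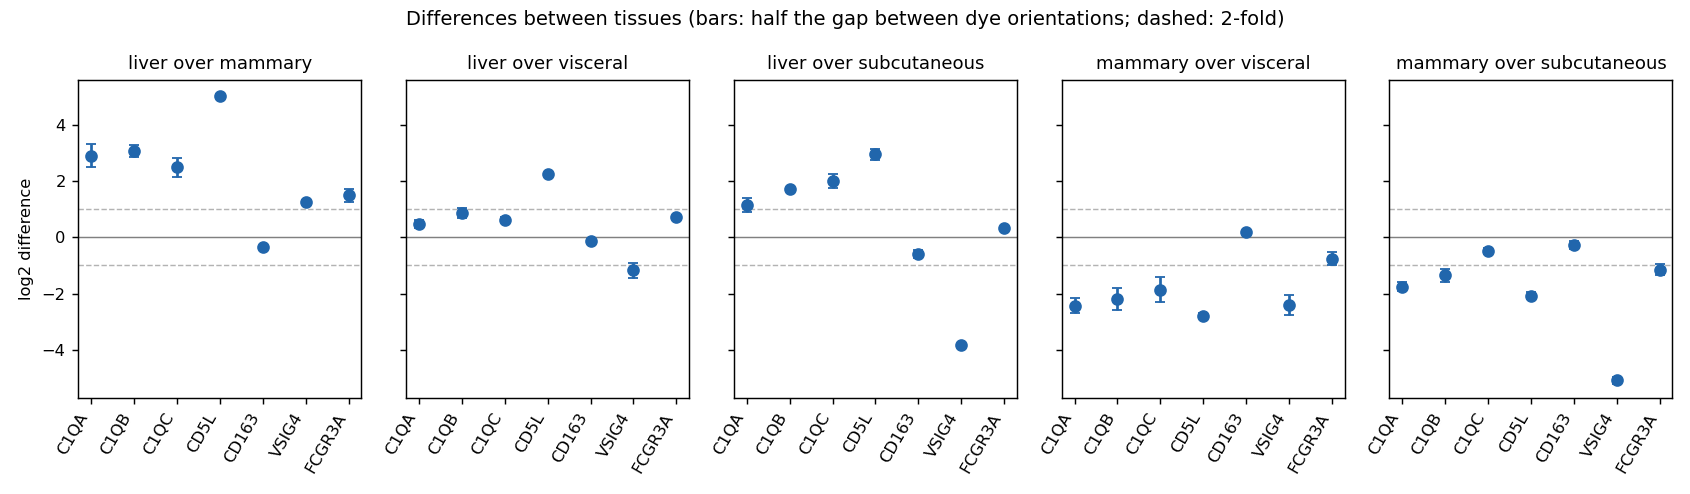
Log2 difference (vertical axis) of each of the 7 genes (horizontal axis) in 5 comparisons of liver or mammary gland with another tissue, 1 panel each; bars reach to each dye orientation and dashed lines mark 2-fold. CD5L lies highest in the liver panels at 2.23 to 5.02, VSIG4 lies lowest against subcutaneous adipose tissue at -3.83 and -5.07, and CD163 stays within the dashed lines in all 5 panels.

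The partners of C1q in the classical pathway were set beside it, from a list of 40 complement and related genes of which 11 had a value. C1R and C1S, the proteases of the first component, were at 4.69 and 4.73 in liver, 0.06 and 0.12 in mammary gland, 1.24 and 1.95 in subcutaneous, 1.88 and 1.76 in mesenteric and 1.64 and 1.49 in omental adipose tissue, as means of both arrays. Like the C1q genes they were highest in liver and lowest in mammary gland. They differed from C1q in the size of the step from liver to fat, more so against visceral than against subcutaneous adipose tissue. Over subcutaneous adipose tissue, C1R was higher in liver by 3.45 ± 0.37 and C1S by 2.78 ± 0.06. The C1q genes were at 1.15 to 2.00 in that comparison. In liver over visceral adipose tissue C1R was higher by 2.93 ± 0.39 and C1S by 3.11 ± 0.06, where the C1q genes were at 0.47 to 0.87. SERPING1, the inhibitor of both proteases, was higher there by 2.17 ± 0.29, C2 by 2.53 ± 0.19 and C4A, the next substrate of the pathway, by 1.81 ± 0.05. In all, 6 of the 11 listed genes with a value were higher in liver than in visceral adipose tissue and none lower. Against mammary gland 7 of 11 were higher in liver. The 11 include CALR, C1QTNF1 and C1QTNF5, related genes rather than components of the pathway, which were not counted in either comparison.

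Between the fat depots few complement genes were counted. In subcutaneous over visceral adipose tissue 1 of 11 was higher and 1 lower, with a median of -0.02. CFP, which encodes properdin, a stabiliser of the alternative pathway made by leukocytes, was higher at 1.86 ± 0.08 and C4A lower at -1.04 ± 0.04. SERPING1 at -0.96 ± 0.02, C1R at -0.52 ± 0.02 and C1S at 0.33 ± 0.12 were not counted. C1QC and C4A were thus counted as lower, and VSIG4, the receptor for C3 fragments, and CFP as higher. For C4A this rests on the limit, since C4A itself and SERPING1 lay close to it. C1QC was beyond the limit in both orientations, at -1.04 and -1.72, while C1QB at -0.85 ± 0.15 fell short of it. C1QC was at -0.75 and not counted when centring was left out. Without centring 2 of the 11 genes were higher and none lower, and the median was 0.60.

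**Figure D5:**
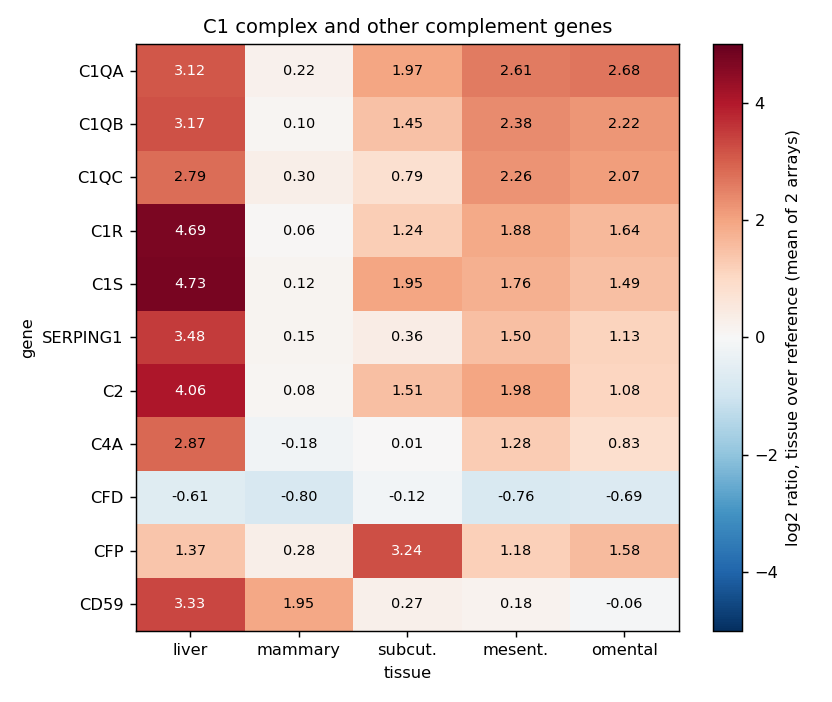
Mean level of both arrays (colour and printed value, centred log2 ratio of tissue over reference) for the 3 C1q genes and 8 further complement genes (vertical axis) in the 5 tissues (horizontal axis). C1R and C1S reach 4.69 and 4.73 in liver and stay at or below 1.95 elsewhere. The C1q genes are at 2.79 to 3.17 in liver and at 2.07 to 2.68 in both visceral depots. In subcutaneous adipose tissue the C1q genes are at 0.79 to 1.97.

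Few Fc receptor and signalling genes could be set beside FCGR3A, as 4 of 15 listed had a value. FCGR1A, the high-affinity receptor for IgG, was higher in subcutaneous than in visceral adipose tissue by 1.61 ± 0.05, as were the phosphatase genes PTPN6 by 1.42 ± 0.06 and INPP5D by 1.15 ± 0.15. FCGR3A was at 0.38 ± 0.04 in the same comparison and FCGRT, which protects IgG and albumin from breakdown, at -0.57 ± 0.01. In liver over mammary gland the counted gene was FCGRT at 1.60 ± 0.07, beside FCGR3A at 1.49 ± 0.23, while FCGR1A was at 0.29 ± 0.01. FCGR1A had its highest mean level in subcutaneous adipose tissue and FCGR3A in liver.

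Scavenger receptors and genes of haemoglobin and iron handling were the setting for CD163 and CD5L, with 12 of 27 listed genes measured. In subcutaneous over visceral adipose tissue 3 were higher, MSR1 (scavenger receptor A) at 2.40 ± 0.05, HMOX1 at 1.55 ± 0.06 and SCARB2, a lysosomal membrane protein, at 1.12 ± 0.07, and HAVCR1, a receptor for phosphatidylserine, was lower at -1.05 ± 0.19. Without centring 8 of the 12 were higher and none lower. In liver over mammary gland 7 of 12 were higher and none lower, with HAVCR1 at 8.23 ± 0.22 and SLC40A1 at 2.80 ± 0.17. CD163, the haemoglobin receptor, was at 0.45 ± 0.18 and -0.33 ± 0.01 in these comparisons and did not reach 2-fold in any of the 7 comparisons with centring.

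Over the 10 arrays C1QA and C1QB correlated at r = 0.98, C1QB and C1QC at 0.97 and C1QA and C1QC at 0.94. CD5L correlated with C1QB at 0.97, and VSIG4 with C1QA at 0.33 and with C1QC at 0.02. After the mean of each dye orientation had been taken off, a step chosen after the dye offset was seen, C1QA and C1QB were at 0.97, CD5L and C1QB at 0.96, and VSIG4 and C1QC at -0.04. The points are 5 tissues with 2 arrays of the same RNA each and a shared reference, and r is given as a description.

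Likeness was sought among the 1072 genes with an SD over tissues of at least 0.5, a number that includes the members reaching it. Leaving out the members, those most like C1QA over the 10 arrays were OAF (r = 0.97), ZFYVE21 (0.95) and SLC40A1 (0.94). Most like C1QB were RBP4, OAF and ERLIN2 (0.96, 0.96 and 0.95) and most like C1QC were RBP4, LOC327709 and COQ9 (0.96, 0.95 and 0.95). The genes nearest to CD5L were the complement protease gene C1R (0.98), the catalase gene CAT (0.97) and C1S (0.97). VSIG4 was most like DUSP6, a phosphatase that acts on ERK (0.99), SRGN, a proteoglycan of leukocyte granules (0.99), and TAOK3 (0.98). FCGR3A was most like ENPP1, SPG21 and SH3BGRL (each 0.96), and CD163 most like PSMB8, a subunit of the immunoproteasome (0.90), ABRACL (0.87) and CDC42SE1 (0.86). With the dye orientation means taken off, the nearest gene was FCGRT for C1QB (0.98) and C1QC (0.97), ZFYVE21 for C1QA (0.98), PNRC2 for CD5L (0.98), ECM1 for FCGR3A (0.98), DAPP1 for CD163 (0.93) and DUSP6 for VSIG4 (0.99). The genes most like VSIG4 in first and second place were the same with and without the dye means, and those of C1QB, C1QC and CD5L were others.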

How the data were processed

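Aminoallyl cDNA from 20 ug of RNA carried Cy3 or Cy5 and was hybridised for 2 days at 42 C, and images were processed in GenePix 4.0, per the labels' protocols. An element has 2 spots on each array. The values that the authors deposited were read here as log2 ratios of the dyes, since 94 of them sat at 16.61, the log2 of 100000; base, background correction and normalisation were not given in the sources used here. Without the intensities of the channels, dim spots could not be set apart, and precision is limited by having 2 arrays per tissue.

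The sign of the Cy3-tissue arrays was turned, which assumes Cy5 over Cy3. Opposite-dye arrays of a tissue correlated at -0.78 to -0.66 as deposited. Each array was centred on its median, which ran from -1.32 to 0.71 as deposited. Values at the ceiling were taken as missing beside 2402 missing ones, and duplicate spots and then the elements of a gene were averaged.

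Annotation identifiers did not follow the table's positions. The 48 blocks of 171 elements were joined to 16 blocks of 528 identifiers through 384-well plates, by the layout in which clones of 1 gene had the most similar profiles. Its mean cosine was 0.50 on 476 search genes and 0.51 on 475 held-out genes, against 0.09 for the next different layout on the held-out genes. Names were used for 20 plates, giving 5472 elements, 5467 of them matched to RefSeq (ARS-UCD2.0). Of the identifiers, 10884 had 1 symbol, 186 several and 5346 none. The name of any 1 clone may still be wrong. No coordinate is printed, since no build is given for the deposited files, and no sequence table was used here.

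The members and all gene lists were chosen with earlier results of these data known. The genes named from a list are up to 4 with the largest size among those counted in a comparison, and others whose value is needed beside a member. Likeness is Pearson's r over the 10 arrays. With 1 RNA sample per tissue no test was made. Scripts (Python 3.11.15, numpy 2.4.6, pandas 2.3.3) were tested on simulated data.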

Additional observations from a re-analysis of the deposited data

How the results depend on the processing

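Each of the 49 differences (7 genes in 7 comparisons) was recomputed without centring, after quantile normalisation, with the arrays of 1 dye orientation, with ceiling values kept, with the median over elements, with the first spot of each element and, where visceral adipose tissue entered, with 1 depot or without the omental array whose labels disagree. Of 413 recomputed values, 399 kept their side of the 2-fold limit and 14 changed it, those with the most weight being given with the comparisons. Part of this was fixed in advance. The median over elements could change nothing, as each of the 7 genes had 1 or 2 elements. Keeping ceiling values could change little, as no value of these genes sat at the ceiling. Both settings are among the 413 values. In size, 81 of the 413 values moved by more than the SD of their dye orientations, and 332 did not. With the arrays of 1 dye orientation a difference moves by its ±, which is always below that SD. Those values were therefore among the 332 by construction, as were those of the median over elements. None of the counted differences reversed, apart from the opposite direction of the ratio, which turns every sign. With 1 dye orientation alone none could reverse, since a counted difference has the same sign in both orientations by rule. Nor could any reverse with the median over elements. At 1.5-fold, 5 members were counted in subcutaneous over visceral adipose tissue (1 higher and 4 lower), against 2 at 2-fold. In liver over visceral adipose tissue 5 were counted (4 higher and 1 lower), also against 2. A lower limit counts more genes by construction. The share of all genes at 1.5-fold was not computed, so these counts cannot be set against it. Against mesenteric adipose tissue alone, 1 member was counted in liver over visceral adipose tissue. C1QB was counted as lower in subcutaneous adipose tissue after quantile normalisation, at -1.02, and in the Cy5 arrays alone; the cause was not tested. No paired analysis was possible because each tissue is 1 RNA sample and no test was made.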
